A study of Mus musculus with 4 samples.

Results

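The genes described here mark the blood vessels of soleus muscle: 16 endothelial genes, 11 genes of mural cells (vascular smooth muscle cells and pericytes) and 5 angiogenic factors and receptors. They were taken from a list of 32 names, through probe sets that the platform annotation gives a single symbol, and 28 of the 32 are on the array, out of 8252 named genes in all. Esam, Egfl7, Lmod1 and Cspg4 have no such probe set. Where a gene had several probe sets, the one with the highest mean over the 4 arrays stood for it.

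RNA was compared between HSL-null mice, which lack hormone-sensitive lipase (the enzyme encoded by Lipe that hydrolyses stored acylglycerols), and wildtype mice. Both groups were female and 6 months old, and each was represented by 1 pool of soleus, a slow-twitch calf muscle, from 5 mice, measured on 2 arrays that the labels call technical duplicates. The sources used here name neither the strain nor the construction of the null allele. With 1 pool per genotype there is no replicate check across animals, so no p-value was computed, and errors describe the spread between duplicate arrays only.

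Capillaries run along each muscle fibre and are made of a single layer of endothelial cells with scattered pericytes, while arterioles carry a coat of contractile smooth muscle. Endothelial cells receive VEGF ligands, which muscle fibres release, through the receptors Kdr and Flt1 with the co-receptor Nrp1, and receive angiopoietins through Tek and its partner Tie1. Pericytes are recruited through Pdgfrb, and the contractile state of smooth muscle is marked by Myh11, Acta2, Tagln and Cnn1. In pooled tissue, fewer vessel cells and less of an RNA per vessel cell cannot be told apart.

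Values are linear intensities on the deposited scale, with trimmed array means of 100.078 to 100.082. Lipe, the targeted gene, measured 16.2 and 19.4 on the HSL-null arrays, against 71.4 and 70.2 on the wildtype arrays (log2 difference -2.0 ± 0.13, SE of the duplicates). All 8 slow fibre markers lay above the filter described next, among them Tnnt1 (6183.1 and 5940 in HSL-null, 6088.5 and 5645.9 in wildtype) and Myh7 (5267 and 5136 in HSL-null, 5355 and 4889 in wildtype). Signal for slow fibre markers was thus present in both pools. The probe sets of Tnnt1 and Myh7 carry suffixes that mark probes shared with related transcripts. Fast fibre genes gave strong signal too, such as Tnnt3 with a mean of 4182 over the 4 arrays. As a measure of RNA quality, the 3′ over 5′ intensity ratio for beta-actin control probes was 0.816 and 0.823 in HSL-null, against 0.688 and 0.706 in wildtype. For Gapdh it was 0.922 and 0.912 in HSL-null, against 0.955 and 0.927 in wildtype. The part of RNA quality in the results below was not tested.

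No vascular gene differed by as much as 1.5-fold on every array pair. Each HSL-null array was set against each wildtype array, and a gene was called when these 4 pairs ran one way and none was below 1.5-fold. It was read only above a filter, the median level of all probe sets (intensity 27.7). Of the 28 genes 25 passed that filter, 13 endothelial, 8 mural and 4 angiogenic, while Nos3, Cnn1 and Notch4 did not. Of these 25, 0 were called higher and 0 lower in HSL-null, against 0.226% of 6208 probe sets called higher and 0.226% called lower. A count of 0 among 25 genes is not told apart from that background.

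Without a size limit, 3 of the 25 genes were higher on all 4 array pairs (Flt1, Ramp2 and Tagln) and 5 were lower on all 4 (Pecam1, Vwf, Sox18, Myh11 and Actg2). Over all 6208 probe sets, 19.5% were higher on all 4 pairs (1208) and 21.1% were lower (1311), a split that was 851 and 1687 with median centring. The 3 and 5 of 25 vascular genes stand close to that background. These 8 genes had the same direction on all 4 pairs under each of the 4 other scalings tried. Higher on all 4 pairs were 5 with quantile normalization, which added Acta2 and Rgs5, and 4 with cyclic loess, which added Rgs5. The median log2 difference was -0.047 for the endothelial genes, 0.017 for the mural genes and -0.042 for the angiogenic genes, against -0.0022 for all probe sets above the filter. In 6 of the 25 genes the difference between genotypes was larger than both differences between duplicates, as it was for 28.6% of all probe sets above the filter.

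**Figure D1:**
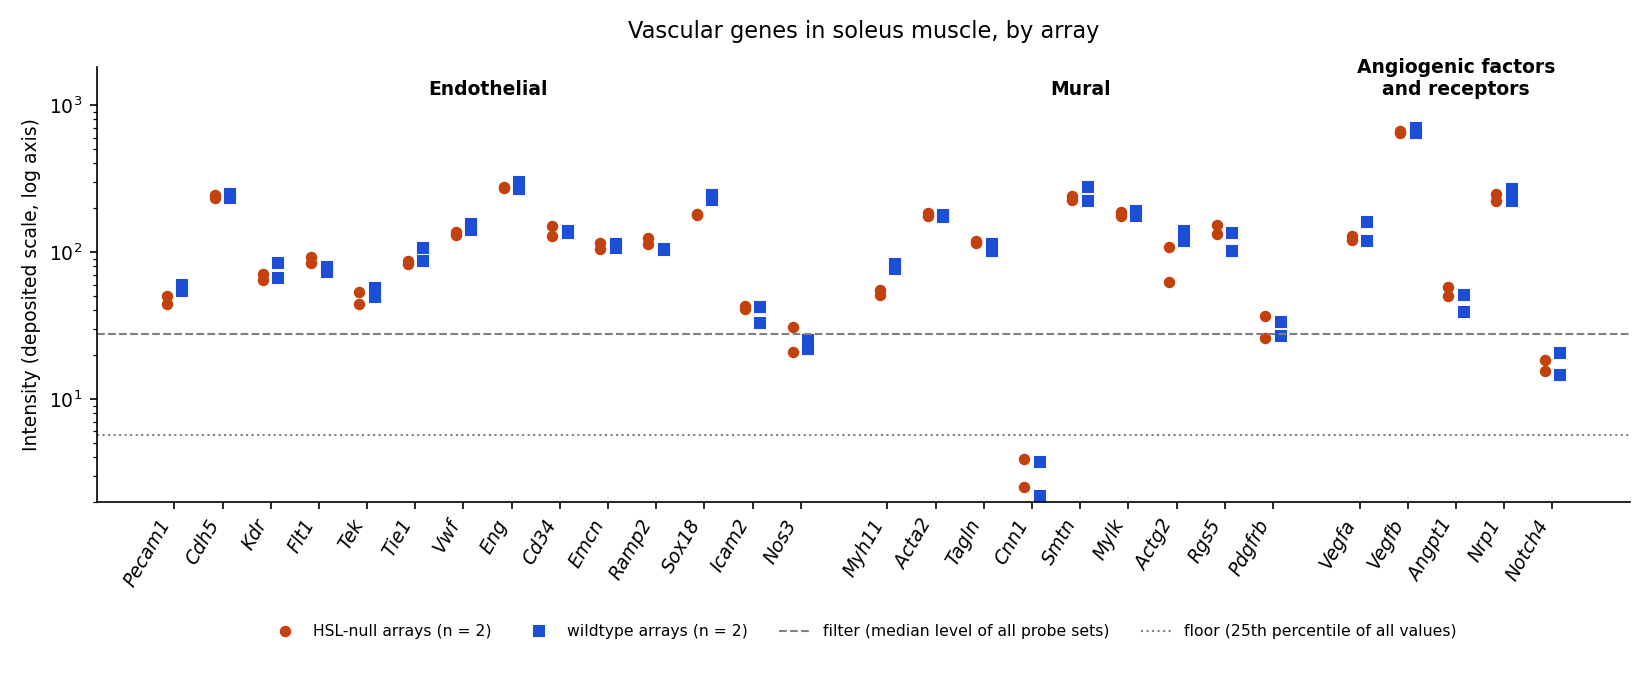
Intensity (log axis) of the 28 vascular genes on each of the 4 arrays, with HSL-null arrays as circles left of the wildtype arrays as squares. Dashed and dotted lines mark the filter (27.7) and the floor (5.70). Myh11 and Sox18 show wildtype squares above the HSL-null circles, while Cnn1 lies below the floor on every array.

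Among the receptors for VEGF, Flt1 was higher in HSL-null on all 4 array pairs, and Kdr overlapped between the genotypes. Flt1, which binds VEGF tightly and also acts as a decoy for it, measured 92.4 and 83.6 in HSL-null, against 73.0 and 78.8 in wildtype. The lowest HSL-null array thus lay above the highest wildtype array, with a log2 difference of 0.21 ± 0.091. A dimmer probe set for Flt1 gave 50.7 and 55.1 in HSL-null and 54.4 and 47.1 in wildtype, where the arrays overlapped (0.062 ± 0.12). Kdr, the main signalling receptor for VEGF, measured 70.7 and 64.1 in HSL-null, against 84.2 and 66.6 in wildtype (-0.15 ± 0.18). The 2 wildtype arrays of Kdr differed from each other by more than the genotypes did.

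The receptors of the angiopoietin and TGF-beta families overlapped between genotypes. Tek, the angiopoietin receptor, measured 44.5 and 53.1 in HSL-null, against 56.7 and 49.4 in wildtype (-0.12 ± 0.16). Tie1, its orphan partner, measured 87.4 and 82.8 in HSL-null, against 87.3 and 106.6 in wildtype (-0.18 ± 0.15). The overlap for Tie1 rested on 1 pair, 87.4 on HSL-null array 1 and 87.3 on wildtype array 1. Its other probe set was nearly level, at 79.4 and 82.6 in HSL-null and 81.9 and 81.6 in wildtype (-0.014 ± 0.029). Eng, a TGF-beta co-receptor of endothelium, measured 274.8 and 273.6 in HSL-null, against 267.8 and 299.8 in wildtype (-0.047 ± 0.081), so that both HSL-null arrays lay between the wildtype arrays.

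Promoter sequences (RefSeq, build GRCm38.p6) were held in the reference tables for 7 endothelial, 5 mural and 4 angiogenic genes on the array, and they cover 250 bases before to 50 after the start. ETS factors, a transcription factor family that endothelial genes depend on, bind around the core GGAA. The longer form AGGAAG was found on either strand in 5 of the 7 endothelial promoters (Flt1, Tie1, Eng, Cd34 and Emcn), in 2 of the 4 angiogenic genes (Nrp1 and Notch4) and in 0 of the 5 mural genes (Acta2, Cnn1, Mylk, Rgs5 and Smtn). Of all 32851 promoters of the same length, 35.4% hold it. The other 2 endothelial promoters, those of the receptors Kdr and Tek, held no match. A match describes these letters only. Shown are the promoters of the 3 receptors above that hold a match, 5′ to 3′ on the gene's strand. Each AGGAAG, or its reverse complement CTTCCT, is in capitals.
Flt1 (chr5:147725962-147726261, strand -): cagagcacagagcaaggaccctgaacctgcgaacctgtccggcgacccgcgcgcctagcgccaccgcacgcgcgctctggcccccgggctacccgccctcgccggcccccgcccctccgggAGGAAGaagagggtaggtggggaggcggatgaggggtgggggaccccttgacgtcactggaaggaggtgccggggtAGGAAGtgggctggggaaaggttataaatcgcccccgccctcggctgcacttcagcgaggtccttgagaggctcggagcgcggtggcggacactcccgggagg
Tie1 (chr4:118489800-118490099, strand -): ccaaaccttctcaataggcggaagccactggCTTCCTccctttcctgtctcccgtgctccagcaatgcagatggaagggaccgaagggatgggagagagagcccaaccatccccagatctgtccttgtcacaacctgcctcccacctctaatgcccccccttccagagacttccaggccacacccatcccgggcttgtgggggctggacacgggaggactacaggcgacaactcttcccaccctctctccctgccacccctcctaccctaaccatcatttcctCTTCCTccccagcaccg
Eng (chr2:32646345-32646644, strand +): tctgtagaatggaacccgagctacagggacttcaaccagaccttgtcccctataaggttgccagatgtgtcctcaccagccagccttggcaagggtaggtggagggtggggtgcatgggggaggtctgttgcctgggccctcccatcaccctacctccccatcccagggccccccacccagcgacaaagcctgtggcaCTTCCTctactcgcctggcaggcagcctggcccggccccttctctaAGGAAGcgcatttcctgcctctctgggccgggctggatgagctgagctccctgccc
Each of the 3 promoters holds 2 matches. Of these receptors, Flt1 lay above 0 on all 4 array pairs, while Tie1 and Eng lay on both sides of 0.

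The junction and surface proteins of endothelium did not move as one. Pecam1, the adhesion molecule CD31 of endothelial contacts, measured 44.1 and 50.1 in HSL-null, against 60 and 54.5 in wildtype (log2 difference -0.28 ± 0.12). Both HSL-null arrays were the lower ones. Cdh5, the VE-cadherin of the same contacts, measured 234.3 and 243.4 in HSL-null, against 231.4 and 248.7 in wildtype, with a difference of only -0.0066 ± 0.059. Cd34, a sialomucin of capillary endothelium and of progenitor cells, measured 127.6 and 150.1 in HSL-null, against 137.7 and 133.6 in wildtype (0.029 ± 0.12). Its dimmer probe set had the opposite sign and no overlap, at 66.0 and 67.9 in HSL-null and 68.5 and 78.1 in wildtype (-0.13 ± 0.097).

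Emcn, the sialomucin endomucin of capillaries and veins, measured 115.7 and 104.2 in HSL-null, against 113.3 and 106.6 in wildtype, and its difference of -0.0013 ± 0.087 was close to 0. The other Emcn probe set above the filter gave -0.082 ± 0.068. Icam2, an adhesion molecule that leukocytes bind, measured 41.1 and 42.6 in HSL-null, against 42.3 and 33 in wildtype (0.16 ± 0.18). Here wildtype array 2 stood below the other 3 arrays. Without that array the Icam2 difference was -0.016.

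Vwf, Sox18 and Ramp2 separated the arrays by genotype without reaching 1.5-fold. Vwf, the clotting glycoprotein that endothelium stores, measured 136.2 and 131.2 in HSL-null, against 141.5 and 153.7 in wildtype (-0.14 ± 0.065). A further Vwf probe set lay under the floor of 5.70 on all 4 arrays and gave no difference. Sox18, a transcription factor of arterial and lymphatic development, measured 181.2 and 177.0 in HSL-null, against 224.6 and 242.2 in wildtype. All HSL-null values were lower, by 1.30-fold (log2 difference -0.38 ± 0.057). Its other probe set ran the same way, with 113.3 and 123.3 in HSL-null and 137.0 and 135.0 in wildtype (-0.20 ± 0.062). Both Sox18 probe sets carry suffixes that mark probes shared with related transcripts. Ramp2, the partner that turns the calcitonin receptor-like receptor into the adrenomedullin receptor, measured 113.3 and 123.9 in HSL-null, against 103.5 and 104.8 in wildtype (0.19 ± 0.065).

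Nos3, the endothelial nitric oxide synthase, lay below the filter with 30.9 and 21.0 in HSL-null and 25 and 21.7 in wildtype. Its SE of 0.30 was larger than its difference of 0.13. Over the 13 endothelial genes above the filter, 4 lay above 0 and 9 below. These counts were 3 and 10 with median centring, and 6 and 7 with quantile normalization or cyclic loess. Over all probe sets above the filter 3074 lay above 0 and 3134 below (2483 and 3725 with median centring). The summed intensity of the 14 endothelial genes on the array was 1594.2 and 1600.7 in HSL-null, against 1648.3 and 1700 in wildtype. Sox18 alone entered this sum with 181.2 and 177.0 in HSL-null, against 224.6 and 242.2 in wildtype. Most of the lower sum came from that gene, so it does not show a lower level across the endothelial genes.

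**Figure D2:**
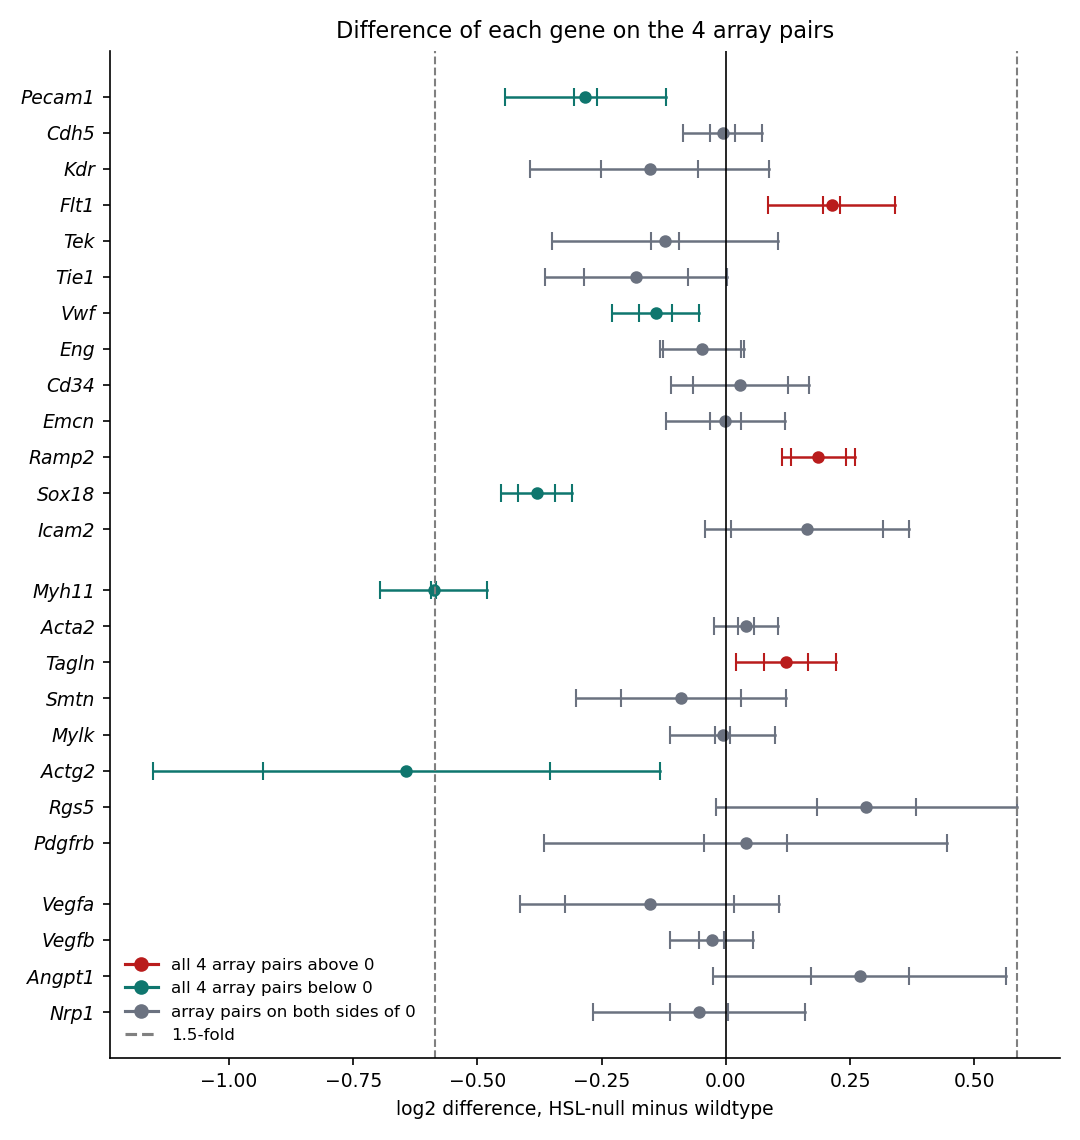
Log2 difference, HSL-null minus wildtype, of the 25 vascular genes above the filter, with ticks for the 4 array pairs, a line over their range and a dot at the difference of means. Dashed lines mark 1.5-fold. The 4 ticks of Myh11 lie between -0.70 and -0.48, across the dashed line, and those of Actg2 between -1.15 and -0.13.

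On all 4 arrays together, mural genes held the largest differences of the 25, Myh11 and Actg2, both lower in HSL-null on all 4 pairs and neither called. Myh11, the smooth muscle myosin heavy chain and a specific marker of mature smooth muscle, measured 51.3 and 55.1 in HSL-null, against 76.9 and 83.1 in wildtype. The HSL-null arrays were lower on every pair, 1.5-fold on average, with a log2 difference of -0.59 ± 0.076. It was not called because the smallest of the 4 pair differences was 0.48 in size. Without wildtype array 1 it was called, at 1.56-fold lower, and it was the single vascular gene called when the limit for every pair was lowered to a 25% difference.

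Actg2, the gamma actin of visceral smooth muscle, measured 62.4 and 108.6 in HSL-null, against 119.1 and 138.8 in wildtype (-0.64 ± 0.41). HSL-null array 1 was far below array 2, and the duplicates of this genotype differed by more than the genotypes did. Without HSL-null array 2 the gene was called, at 2.06-fold lower, and without HSL-null array 1 its difference was -0.24, smaller in size than that of Sox18 (-0.40), so that array 1 carries the size of the value. Its probe set has the suffix of probes shared within a gene family, and the muscle actins are close relatives, so that the signal cannot be credited to Actg2 alone.

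The other contractile genes of smooth muscle did not follow Myh11. Acta2, the alpha actin that marks smooth muscle and many pericytes, measured 184.6 and 174.5 in HSL-null, against 171.7 and 177.4 in wildtype (0.040 ± 0.047). Tagln, the actin-binding protein SM22, measured 114.4 and 118.9 in HSL-null, against 112.8 and 102.0 in wildtype, higher on all 4 pairs by a small amount (0.12 ± 0.078). Mylk, the kinase that phosphorylates smooth muscle myosin light chain, measured 187.4 and 176.0 in HSL-null, against 174.9 and 190.3 in wildtype (-0.0066 ± 0.076). Thus Tagln lay above 0, and Acta2 and Mylk had overlapping arrays. Smtn, a structural protein of contractile smooth muscle, measured 239.7 and 225.2 in HSL-null, against 220.5 and 277.5 in wildtype (-0.090 ± 0.17). Cnn1, the smooth muscle calponin, was under the floor on all 4 arrays, at 2.5 and 3.9 in HSL-null and 3.7 and 2.2 in wildtype. The labelled pools therefore gave no usable signal for that marker on its probe set.

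The pericyte genes gave no call either. Rgs5, a regulator of G protein signalling that marks pericytes, measured 132.2 and 152.1 in HSL-null, against 134.0 and 101.4 in wildtype (0.28 ± 0.23). The overlap rested on 132.2 against 134.0, and with quantile normalization or cyclic loess all 4 pairs lay above 0. Its other probe set was higher on all 4 pairs, at 107.8 and 100.9 in HSL-null and 92.6 and 71.3 in wildtype (0.36 ± 0.19). In both probe sets wildtype array 2 was the lowest of the 4. Without that array the brighter Rgs5 probe set differed by 0.082. Pdgfrb, the receptor that draws pericytes to vessels, lay close to the filter at 36.5 and 26.0 in HSL-null and 26.8 and 33.5 in wildtype (0.040 ± 0.29).

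Over the 8 mural genes above the filter, 4 lay above 0 and 4 below, with a range from -0.64 to 0.28. The median of 0.017 had the opposite sign with median centring (-0.017), and on the single array pairs it lay between -0.21 and 0.060. The summed intensity of the 9 mural genes on the array was 1011 and 1040.3 in HSL-null, against 1040.4 and 1106.2 in wildtype. Actg2, whose signal cannot be credited to that gene alone, entered this sum with 62.4 and 108.6 in HSL-null, against 119.1 and 138.8 in wildtype. The lower sum rests on that gene, so it gives no direction for the mural genes as a group.

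**Figure D3:**
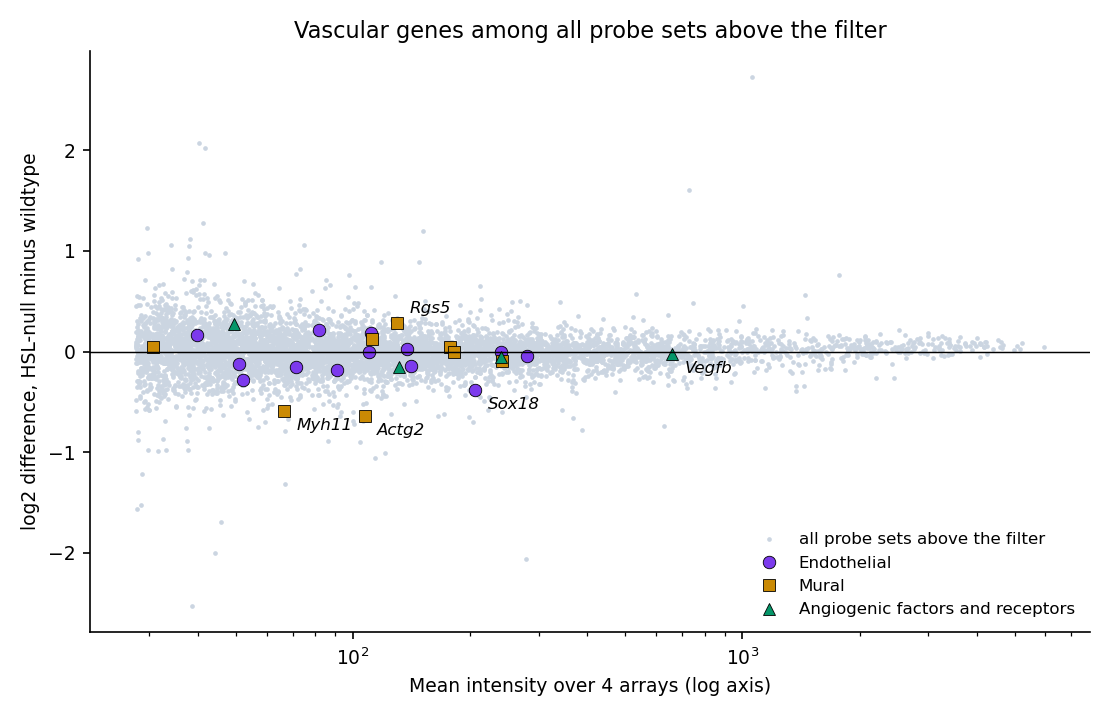
Log2 difference, HSL-null minus wildtype, against the mean intensity over 4 arrays (log axis) for all 6208 probe sets above the filter (grey), with the 25 vascular genes in colour. Most vascular genes lie within the grey cloud at their level, and Actg2 (-0.64), Myh11 (-0.59) and Sox18 (-0.38) lie toward its lower edge.

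The angiogenic ligands overlapped between genotypes, and so did the brighter probe set of the co-receptor Nrp1. Vegfa, the principal ligand for Kdr and Flt1, measured 119.7 and 127.4 in HSL-null, against 159.5 and 118.3 in wildtype (log2 difference -0.15 ± 0.22). Wildtype array 1 stood apart there, and without it the difference was 0.062. Vegfb, a ligand of Flt1 made by oxidative muscle, measured 665.9 and 640.1 in HSL-null, against 641.4 and 691.6 in wildtype. Its difference of -0.029 ± 0.061 is the smallest, in size, among the 4 angiogenic genes above the filter. Angpt1, the stabilising ligand of Tek, measured 50.2 and 57.5 in HSL-null, against 51.1 and 38.9 in wildtype (0.27 ± 0.22). The Angpt1 arrays overlapped through 50.2 on HSL-null array 1 and 51.1 on wildtype array 1, and wildtype array 2 was again the lowest. Without that array the Angpt1 difference was 0.072.

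Nrp1, a co-receptor for VEGF and semaphorins, measured 248.3 and 223.0 in HSL-null, against 222.4 and 268.5 in wildtype (-0.054 ± 0.16). Its dimmer probe set disagreed, with 109.5 and 132.4 in HSL-null and 106.1 and 77.9 in wildtype, higher on all 4 pairs (0.41 ± 0.26). Averaged over both probe sets the Nrp1 difference was 0.18, so that no direction can be given for this gene. Notch4, the Notch receptor of arterial endothelium, lay below the filter, at 18.3 and 15.5 in HSL-null and 20.4 and 14.6 in wildtype (-0.035 ± 0.27). The median of the 4 angiogenic genes above the filter was -0.042, and it was 0.073 when each gene was the mean of its probe sets. Without wildtype array 2 it was 0.049 and without HSL-null array 2 it was 0.011, so the sign rests on single arrays.

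Of the vascular genes, 7 had 2 probe sets above the filter, and in 5 of them (Emcn, Flt1, Rgs5, Sox18 and Tie1) both gave the same sign. Only for Sox18 among these 7 did both probe sets place all HSL-null arrays on one side of the wildtype arrays. Cd34 and Nrp1 gave opposite signs.

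**Figure D4:**
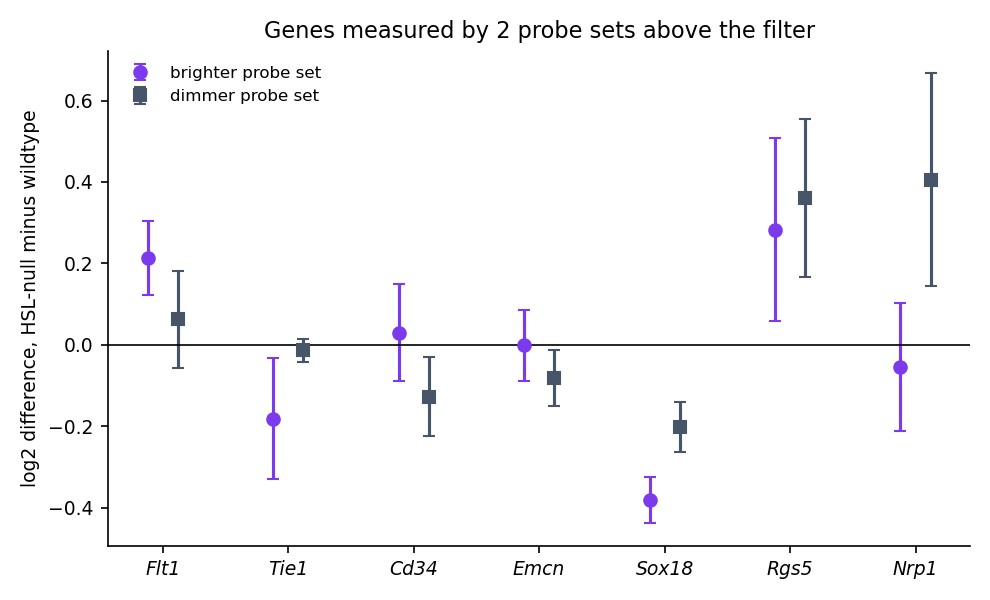
Log2 difference, HSL-null minus wildtype, for the 7 genes with 2 probe sets above the filter, with the brighter probe set as a circle and the dimmer as a square. Bars are standard errors from the duplicate arrays. Sox18 is below 0 on both (-0.38 and -0.20), and Nrp1 is at -0.054 on one and 0.41 on the other.

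Further genes of endothelium were read by the same rule. Of 43 other endothelial genes the array held 34, of which 19 passed the filter, with 0 called. Over all probe sets 0.226% were called higher and 0.226% lower, so a count of 0 among 19 genes is not told apart from that background. On all 4 pairs 6 were higher and 4 lower (4 and 4 with median centring), against 19.5% and 21.1% of all probe sets (851 and 1687 of 6208 with median centring). Their median log2 difference was 0.036, and the range was -0.23 to 0.27. Cav1, the caveolin of endothelial and muscle caveolae, differed by 0.071 ± 0.048. Cd36, a fatty acid transporter of endothelium and muscle, differed by -0.055 ± 0.042, and Klf4, a transcription factor that responds to blood flow, by 0.17 ± 0.026. Chosen after their values were seen, Epas1, the hypoxia-inducible factor of endothelium, stood at 0.27 ± 0.15, and Ptprb, the phosphatase that acts on Tek, at -0.19 ± 0.0096.

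Of 28 other mural genes the array held 16, of which 12 passed the filter. Of these 12, 0 were called, beside 0.226% of all probe sets in each direction. Higher on all 4 pairs was 1, Mcam, an adhesion molecule of pericytes and smooth muscle (0.28 ± 0.062). Lower were 8, by 0.045 to 0.20 on the log2 scale, against 19.5% of all probe sets higher and 21.1% lower (851 and 1687 of 6208 with median centring). Mcam and some of these 8 fall outside the naming rule and were named after their values were seen. The 8 were Des, Vcl, Kcnj8, Abcc9, Anpep, Notch3, Itga7 and Csrp1. Their number was 8 with median centring or cyclic loess and 7 with quantile normalization, and the median of the 12 was -0.093. Des, the intermediate filament protein desmin, differed by -0.045 ± 0.0067. Abcc9, a subunit of the potassium channels of pericytes and muscle fibres, differed by -0.086 ± 0.027, and Tpm2, a tropomyosin, by 0.073 ± 0.068. Des, Vcl, Itga7, Abcc9 and Tpm2 are also made by muscle fibres, so their signal cannot be credited to vessels. The lower value of Notch3, the Notch receptor of smooth muscle and pericytes, was -0.11 ± 0.079. Kcnj8, the channel subunit that pairs with Abcc9 in pericytes, stood at -0.15 ± 0.11.

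Of 42 other angiogenic genes the array held 35, of which 22 passed the filter, with a median of 0.074. Of these 22, 0 were called, beside 0.226% of all probe sets in each direction. On all 4 pairs 7 were higher and 4 lower (5 and 4 with median centring), beside the same 19.5% and 21.1% of all probe sets. Hif1a, the hypoxia-inducible factor that drives Vegfa, differed by 0.077 ± 0.058. Timp3, a metalloproteinase inhibitor that also blocks VEGF binding to Kdr, differed by 0.13 ± 0.12, and Cxcl12, a chemokine for progenitor cells, by 0.077 ± 0.097. Hif1a was higher on all 4 pairs, while the arrays of Timp3 and Cxcl12 overlapped between genotypes. The other genes higher on all 4 pairs, named after their values were seen, were Angptl4 (0.32 ± 0.16), Sema3c (0.30 ± 0.20), Id1 (0.24 ± 0.081), Col18a1 (0.14 ± 0.084), Dll1 (0.13 ± 0.070) and Fgf1 (0.11 ± 0.029). The lower genes, likewise named after their values were seen, were Notch1 (-0.89 ± 0.53), Vegfd (-0.37 ± 0.11), Hes1 (-0.34 ± 0.27) and Bmp6 (-0.25 ± 0.034). Notch1 measured 18.2 and 35.8 in HSL-null, against 54.5 and 41.0 in wildtype, with HSL-null array 1 the lowest of the 4. Vegfd, a ligand of lymphatic endothelium, measured 49.8 and 53.9 in HSL-null, against 71.4 and 62.8 in wildtype, with both duplicates on the same side.

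**Figure D5:**
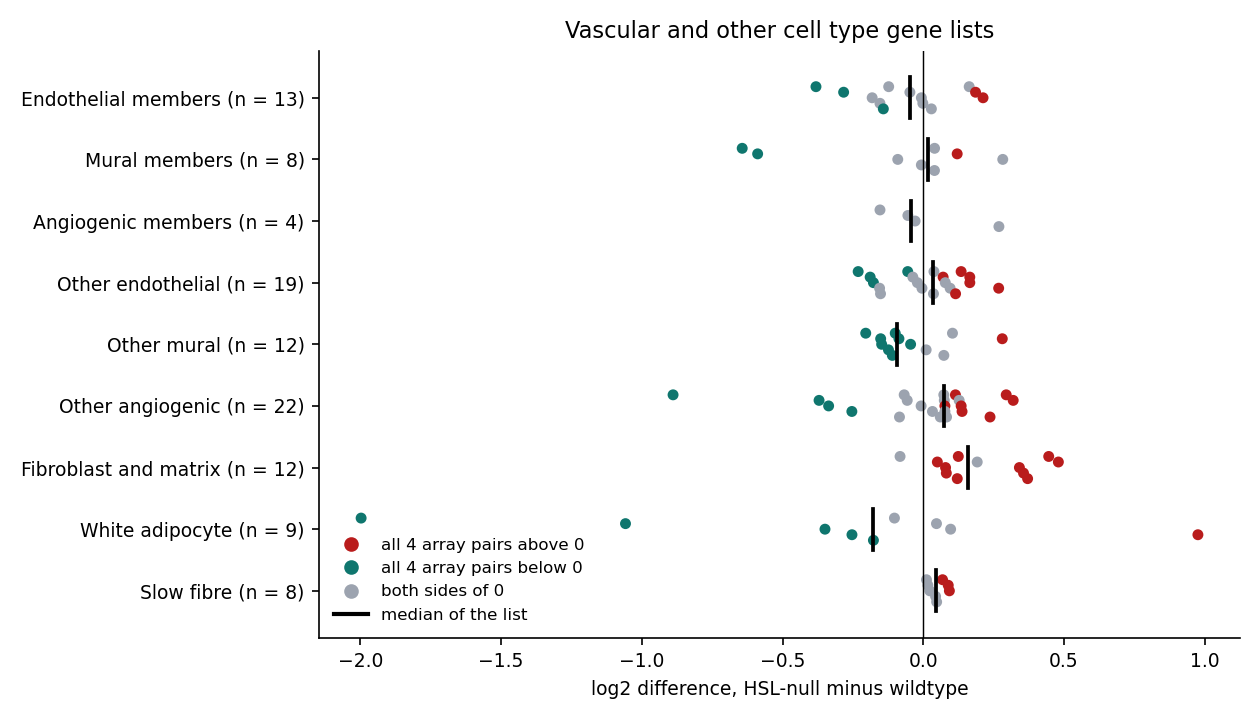
Log2 difference, HSL-null minus wildtype, of each gene above the filter in the 3 vascular groups, the 3 further vascular lists and 3 lists of other cells. Points are genes, coloured by whether all 4 array pairs lie on one side of 0, and the black bar is the median of a list. The vascular medians lie between -0.093 and 0.074, with fibroblast genes at 0.16 and white adipocyte genes at -0.18. The white adipocyte list includes Lipe, the targeted gene.

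Markers of other cells in the muscle were read in the same pools. Of 12 fibroblast and matrix genes above the filter 0 were called, beside 0.226% of all probe sets in each direction. Of the 12, 10 were higher on all 4 pairs, against 19.5% of all probe sets. With median centring 7 were higher, against 851 of 6208 probe sets. Their median was 0.16. The list includes Dcn (0.079 ± 0.020) and Col1a1 (0.48 ± 0.050), and its summed intensity over 12 genes was 4862.3 and 4957 in HSL-null, against 4262.9 and 4308.7 in wildtype. Of 9 white adipocyte genes above the filter 5 were lower on all 4 pairs and 1 higher, against 21.1% and 19.5% of all probe sets. These 5 include Lipe, which is the targeted gene and so no measure of adipocytes here. Lipe itself and Adipoq (-1.06 ± 0.033) were called lower, beside 0.226% of all probe sets called lower. Car3 (0.047 ± 0.077) and Lpl (0.097 ± 0.089) were not called. The sum over the 10 genes of this list was 7184.3 and 7132.5 in HSL-null, against 7319 and 6727 in wildtype. Most of it was Car3 (3803.1 and 3570.7 in HSL-null, 3722.9 and 3416.8 in wildtype) and Lpl (2853.1 and 3049.5 in HSL-null, 2904.7 and 2616.9 in wildtype). Which cells of the muscle gave the signal of Car3 and Lpl was not tested. The sum therefore says little about the dimmer genes of that list and is no measure of adipocytes. No gene of either list was at 0 on any array. Fabp4 (-0.18 ± 0.11), named after its values were seen, stands in both the adipocyte list and the other endothelial list. Adipose tissue and connective tissue carry vessels of their own, and the part of these cells in the vascular values was not tested.

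Of 9 fast fibre genes 3 were called higher, Myh4 (2.72 ± 0.046), Actn3 (1.61 ± 0.10) and Pvalb (0.75 ± 0.039), while Atp2a1 (0.053 ± 0.059) and Tnnt3 (0.044 ± 0.10) were not. Over all 6208 probe sets above the filter, 14 (0.226%) were called higher and 14 (0.226%) lower. The fast fibre sum was 20748.9 and 20574.2 in HSL-null, against 17642.1 and 16078.5 in wildtype. The slow fibre list had 0 called of 8, with a median of 0.046 that was 0.0029 with quantile normalization. All 3 erythroid genes above the filter were higher on all 4 pairs, beside 19.5% of all probe sets (1 of the 3 with median centring), among them Hba-a1 (0.12 ± 0.063) and Hbb-b2 (0.089 ± 0.048), and their list summed to 2816.1 and 2690.9 in HSL-null, against 2481.1 and 2581.9 in wildtype. Blood left in vessels adds such RNA, and its amount was not tested. Macrophage genes had 0 called of 6, with C1qc at 0.036 ± 0.21 and Lyz2 at -0.075 ± 0.059, and nerve genes 0 of 2, Pmp22 (-0.032 ± 0.13) and Mbp (0.20 ± 0.24).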

How the data were processed

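Soleus RNA was measured on 4 arrays, 2 per genotype, each genotype being 1 pool of 5 mice. The deposited table holds 1 linear intensity per probe set (12488), already scaled by the authors, as the near equal trimmed means show (2% trimmed from each end). The sources used here do not name the software or the background correction.

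Values were used as deposited, since the trimmed means lay within 5% of each other, and were raised to the table's 25th percentile (5.70) where lower, before log2. After 66 control probe sets were dropped, probe sets with a mean at or above the median (27.7) were kept (6208, covering 4851 named genes). Of the probe sets 10855 had 1 symbol and 396 several, and 10839 of those with 1 symbol were matched by gene ID to RefSeq. Genotypes were compared by the log2 difference of means and by the 4 array pairs, with no test, because the arrays are duplicates of single pools. All 28 vascular genes on the array are named. Of the further lists, called genes and the brightest 3 (vascular) or 2 (other cells) above the filter are named, and the text marks any other gene as chosen after its values were seen. The members and lists were chosen with earlier results of these data known. The calling rule was tested on simulated arrays with known changes and duplicate array error only. That simulation held no variation between pools or animals, so it does not show how the rule behaves there.

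Alternatives covered scaling (median centring, equal trimmed means, quantile and cyclic loess in limma 3.58.1 with R 4.3.3, values under 0.1 set to 0.1), floor, filter, fold, each array left out, a block by array number, and the choice of probe set or grouping. Computations used Python 3.11.15, numpy 2.4.6, pandas 2.3.3 and scipy 1.17.1, and figures matplotlib 3.10.9. Array precision is limited by the number of arrays, and any reading about the genotypes by the single pool of each.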

Additional observations from a re-analysis of the deposited data

How the results depend on the processing

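With 1 pool per genotype the arrays show array error only, and a shared difference of 1.5-fold or less can be missed. Since every pair must reach 1.5-fold, larger mean differences can be missed too. Actg2 (1.56-fold) and Notch1 (1.85-fold), both lower in HSL-null, were not called. Nor was Agt of the white adipocyte list, 1.97-fold higher in HSL-null and named after its values were seen. The counts of called vascular genes stayed at 0 higher and 0 lower under every scaling, floor and filter tried. They became 1 lower when a 25% difference was asked of each pair, and 3 higher and 5 lower with one sign alone. With each array left out in turn they were 0 higher and between 0 and 1 lower. Over all probe sets, 14 were called in each direction. Those counts were 120 higher and 55 lower with no filter on dim probe sets, 5 and 5 with the filter at the 75th percentile, 74 and 58 with a 25% difference, and 1208 and 1311 with one sign alone. With each array left out they were 29 to 65 higher and 36 to 54 lower, since fewer pairs then had to meet the rule.

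With the array number as a replicate block, so that only same-numbered arrays were paired, 18 and 17 probe sets and 0 and 0 vascular genes were called. The duplicate differences of the 2 genotypes correlated at r = -0.086 over the 6208 probe sets, and the arrays share only a number.

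The endothelial median (-0.047) was -0.081 with median centring, -0.0066 with the filter at the 75th percentile, and -0.083 to -0.023 with each array left out. The angiogenic median (-0.042) was -0.075 with median centring, 0.073 with the mean over all probe sets of a gene, and -0.083 to 0.049 with each array left out. The mural median (0.017) was -0.094 to 0.060 with each array left out. For the angiogenic and mural medians no sign held across the left-out arrays.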

Other observations

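Lymphatic vessel genes, part of the other endothelial list, gave little usable signal and are given as values chosen after they were seen. Flt4, the lymphatic receptor for VEGF-C and VEGF-D, measured 36.5 and 46.4 in HSL-null, against 41.5 and 36.6 in wildtype (log2 difference 0.079 ± 0.20). Lyve1, a hyaluronan receptor of lymphatic endothelium and some macrophages, lay below the filter at 28.3 and 24.1 in HSL-null and 28 and 25.7 in wildtype. Prox1, the transcription factor that defines lymphatic endothelium, measured 10.4 and 7.5 in HSL-null, against 4.1 and 5.1 in wildtype, both of these under the floor of 5.70.

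Leukocyte-binding molecules of activated endothelium, also chosen after their values were seen, lay below the filter in these pools. Sele, the E-selectin of inflamed vessels, was under the floor on all 4 arrays (4.5 and 4 in HSL-null, 4.6 and 4.6 in wildtype). Vcam1, an adhesion molecule for lymphocytes and monocytes, measured 22.9 and 26.8 in HSL-null and 28.9 and 20.1 in wildtype, 1 of its arrays above the filter level and the mean below it. Icam1 had 11.5 and 14.7 in HSL-null, against 15.5 and 17.4 in wildtype.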
